A study of Zea mays with 15 samples.

Results

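Ethephon is a growth regulator that breaks down to ethylene inside the plant and is sprayed on maize to shorten and strengthen the stalk. The 94 probe sets described here are those that read higher after ethephon than after water at both sampling times, 24 and 48 h. A probe set is the group of array probes that reads 1 transcript or a few closely related ones. They were chosen by their readings: a mean signal over all 15 arrays above a filter (the lowest mean that passed was 218.1), and all 3 ethephon arrays above all 3 water arrays at 24 h and again at 48 h. Of 17621 probe sets other than controls, 10577 reached the signal filter and 101 of these met the rule. Of the 10 genes left aside by the rule, 7 met it with 1 probe set each (gst30, Hb, pdc3, cpi2, etr2, d3 and cycD2), and lox1, opr5 and rab17 did not, which leaves 94. A further 44 probe sets met the rule on order but lay below the signal filter and were not counted.

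Maize seedlings were raised in a greenhouse to the jointing stage, and meristem was taken from their seventh internode, with 3 seedlings pooled for each RNA. The 5 groups of 3 Affymetrix arrays were untreated plants at 0 h, plants sprayed with water at 24 and 48 h, and plants sprayed with 600 mg/L ethephon at 24 and 48 h. Genotype and plant age were given no further than this. Values are MAS5 signals, a linear brightness for each probe set, with array medians from 298.8 to 369.5, and 3 arrays a group set the precision. The replicates were labelled as separate biological samples of 1 experiment, so the p-values speak of the spread between such pools.

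In plants ethylene is bound by receptors in the endoplasmic reticulum, which hold the pathway off when empty. Once ethylene is bound, transcription factors of the EIN3 family accumulate in the nucleus and switch on a second tier of factors and their targets. In shoots the hormone is known for restraining elongation and for crosstalk with jasmonate, abscisic acid and gibberellin. In a growing grass internode, cells divide in a basal meristem, then elongate, then lay down thick lignified walls in the vascular strands. A piece cut from it holds several of these stages, and fewer cells of a type and less RNA per cell cannot be told apart in such bulk samples.

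The label of meristem was checked against markers. The homeobox gene kn1 (listed as KN-1), which marks shoot meristems, read 2524 to 4257 on all 15 arrays. Of the 4 meristem probe sets, all above the filter, 0 had a higher mean with ethephon than with water at either time, and their median difference was -0.56 (log2) at 24 h and -0.67 at 48 h. None of the 4 was tested for that difference. At 24 h kn1 read 4257, 3742 and 3695 with water and 3044, 3444.5 and 3582 with ethephon, without overlap. At 48 h its arrays overlapped, at 4034, 3824 and 3373 with water and 3927, 3305 and 3982 with ethephon. PCNA, a clamp of DNA replication, had means of 1246 after water and 561 after ethephon at 24 h, and of 1819 and 1158 at 48 h. Its arrays overlapped at both times. Those of 24 h read 429, 1980 and 1328 with water and 886, 300 and 497 with ethephon. Those of 48 h read 3043, 1514 and 901 with water and 201, 1162 and 2112 with ethephon. The part of these markers in the members' differences was not tested. Among leaf markers the C4 gene pep1 had group means of 74.2 to 97.5, while the Rubisco small subunit rbcS had group means of 6332 to 7840. Of 9 probe sets of endosperm genes 3 reached the filter, the brightest that of the storage protein gene gz27 with group means of 466 to 808, while the starch gene sh2 had group means of 109 or less in both its probe sets. Markers of lignifying vascular tissue were also bright, and their values stand beside the members below.

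The members differed widely in level and in size of difference. Their mean signals ran from 226.8 to 13873 (median 1161, against 957.9 over all probe sets that reached the filter). Ethephon minus water was 0.14 to 4.38 on the log2 scale at 24 h (median 0.73, 1.65-fold) and 0.13 to 2.00 at 48 h (median 0.69, 1.62-fold). The 4.38 was that of Zm.847.1.S1_at, over a water mean of 32.4, and its size is not firm. The water mean lay below the signal filter in 5 members at 24 h and 11 at 48 h, and the 0 h mean in 7. The medians over all probe sets were -0.03 and 0.02. These differences chose the members, so they are a description and no test is given. Of the 94, 21 were at least 2-fold higher at both times and 29 were under 1.5-fold at both. The difference was larger at 24 h in 59 members and at 48 h in 35.

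By itself the 24 h condition was met by 745 probe sets (7.04% of those tested) and the 48 h condition by 543 (5.13%). Both were met by the 101 (0.955%), which is 13.6% of the 24 h set and 18.6% of the 48 h set. The opposite pattern, all ethephon arrays below all water arrays at both times, was met by 50 probe sets. In 33 of the 94 members every ethephon array of either time lay above every water array of either time, as in 37 of all probe sets tested (0.35%). The rule used these arrays, so nothing is read from that count.

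At the edge of the rule the margins were narrow. ZmAffx.203.1.A1_at, just inside, read 3194, 2956 and 3079.7 with ethephon and 2951, 2849.7 and 2576 with water at 48 h, so that its lowest ethephon array read 1.002 times its highest water array. Zm.17285.1.S1_s_at, also just inside, had a ratio of 1.003. Zm.4151.1.A1_at and Zm.6974.1.A1_a_at, just outside, missed at a ratio of 0.9997 and 0.9986. With a gap of at least 1.5 times at both times 3 members remained, Zm.847.1.S1_at, Zm.18983.1.A1_at and Zm.12358.1.S1_at. The water means of Zm.847.1.S1_at and Zm.18983.1.A1_at lay below the signal filter at both times.

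**Figure D1:**
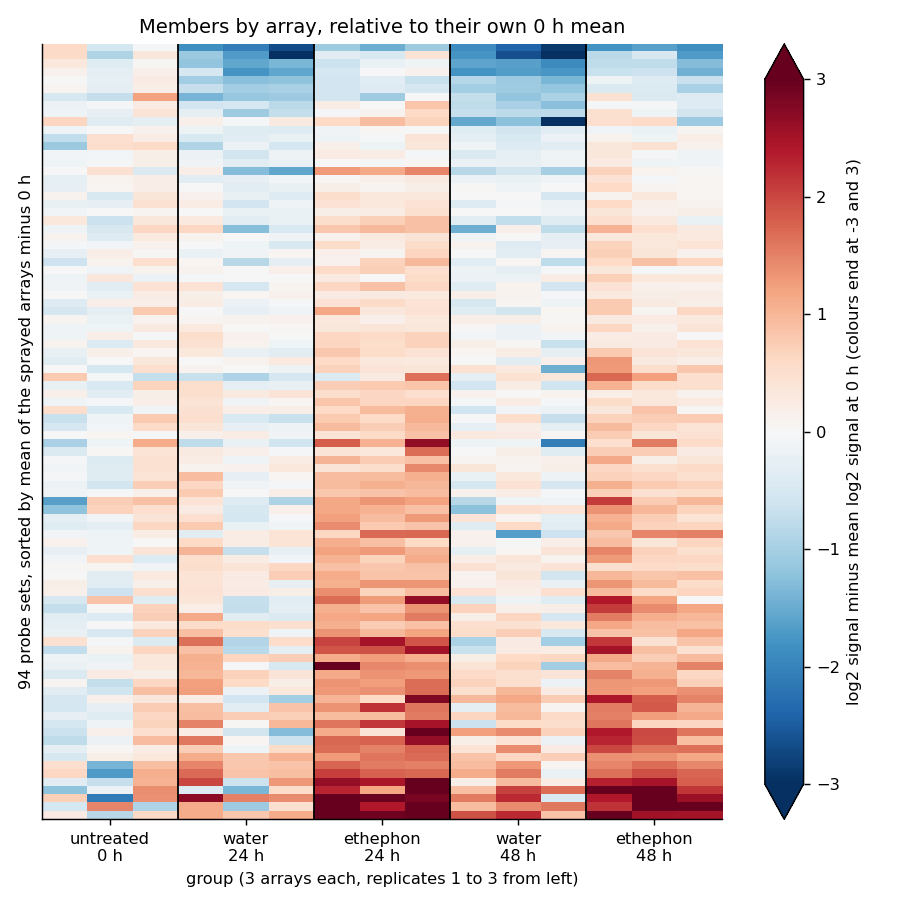
Each row is 1 of the 94 members and each column 1 of the 15 arrays, with colour giving the log2 signal minus the member's own mean at 0 h. Ethephon columns are redder than the water columns of the same time, as the rule requires. Most rows are pale in the water columns, while a small set at the top is blue after water and paler after ethephon.

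The untreated plants of 0 h took no part in the rule other than through the mean signal. Most members stood above their starting level after ethephon (86 of 94 at 24 h and 84 at 48 h, against 52.0% and 56.0% of all probe sets), which follows in part from ethephon arrays having been chosen high. A smaller group lay below it after water and less far below it after ethephon. At 24 h the 0 h mean (of log2 signals) lay nearer to water than to ethephon in 77 of 94 members (81.9%), and at 48 h in 74 (78.7%). Over all probe sets tested these shares were 51.0% and 58.3%, and over the probe sets that met the rule at that 1 time they were 61.9% and 74.0%. In 71 members 0 h was nearer to water at both times, and in 14 it was nearer to ethephon at both.

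A place of 0 h on the way from water (0) to ethephon (1) puts this in 1 number. Its median over members was -0.03 at 24 h and 0.07 at 48 h, so the middle member was close to its 0 h level after water. Over all probe sets tested the median was 0.47 and 0.14. Over the probe sets that met the rule at that 1 time it was 0.24 and -0.04, so the 48 h place was not particular to the members. The place is built from water and ethephon values that the rule used, and is a description. The 0 h arrays did not all give the same place: taken alone they gave medians of -0.28, -0.20 and 0.40 at 24 h and of -0.32, -0.21 and 0.57 at 48 h, the third array lying nearest to ethephon. In detail, 0 h lay below the water mean in 50 members at 24 h and 41 at 48 h, between water and ethephon in 36 and 43, and above the ethephon mean in 8 and 10. It lay below water at both times in 34 members and above ethephon at both in 8. The same counts over all probe sets are not given here, so nothing is read from them about the members as a set.

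Relative to 0 h, the members' median was 0.06 (log2) after water and 0.85 after ethephon at 24 h, and -0.04 and 0.60 at 48 h. Over all probe sets the same medians were 0.05, 0.02, 0.03 and 0.06. Since ethephon arrays were chosen high and water arrays low, these 4 values lean apart by the choice itself. From 24 to 48 h the median member changed by -0.20 within ethephon (22 of 94 higher at 48 h) and by -0.12 within water (33 of 94 higher), against 0.04 and -0.01 over all probe sets. The rule used the arrays of both times, so nothing is read from these counts.

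The mean of ethephon and water of a time, their midpoint, was also tested against 0 h. The midpoint is a separate contrast from the difference that chose the members, but it is made of the same arrays: in a member whose water level is that of 0 h, a higher ethephon level lifts the midpoint as well. The shares called are therefore printed beside the background and nothing is read from them about the members as a set, and a call higher than 0 h does not say that water alone had changed. With limma and Benjamini-Hochberg adjustment over all 10577 probe sets, 15 members passed at 24 h, 11 higher and 4 lower than at 0 h (16.0% of members, against 6.22% of all probe sets). The background was 3.37% for higher and 2.86% for lower probe sets. At 48 h 10 members passed, 5 higher and 5 lower (10.6% against 1.61%, with 0.945% higher and 0.662% lower). The median midpoint of the members lay 0.45 above 0 h at 24 h and 0.28 above at 48 h, against 0.03 and 0.04 over all probe sets. Members were not quieter than the rest: their median residual SD was 0.353 (log2), and 0.329 over all probe sets. Of the 16 members that passed at either time, 9 passed at both, and 0 carried a gene name.

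These calls rested on the 0 h arrays. Without the first 0 h array 6 members passed at 24 h and 3 at 48 h. Without the second 6 and 4 passed, and without the third 20 and 8. Over all probe sets 292 and 104, 124 and 87, and 637 and 144 passed, in that order, against 658 and 170 with every array. Leaving out the first or second water array of 48 h left 6 members at that time, and leaving out the second ethephon array of 48 h left 5. Over all probe sets 112, 121 and 124 passed at 48 h in those fits. RNA quality moved with the groups: the 3'/5' index, the mean log2 excess of 3' over 5' signal in 6 control pairs, was 0.818 to 1.91 at 0 h, 2.22 to 2.84 after water at 24 h and 2.53 to 2.89 after ethephon. The index of 48 h was 1.88 ± 0.34 after water and 2.41 ± 0.08 after ethephon (SD, n = 3 arrays). At 48 h every ethephon array had a higher index than every water array, and every 24 h array one above every 0 h array. With this index added to the model 0 members passed at 24 h (16 at an unadjusted p under 0.05; limma called 5 of all probe sets) and 3 at 48 h, all lower than at 0 h. The members' median midpoint changed less than the calls, and was 0.38 at 24 h and 0.23 at 48 h in that model. The median over all probe sets moved as well, to -0.09 at 24 h and -0.02 at 48 h. Single members could move more, as Zm.15516.1.S1_at did at 24 h, from 1.45 to 1.04.

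**Figure D2:**
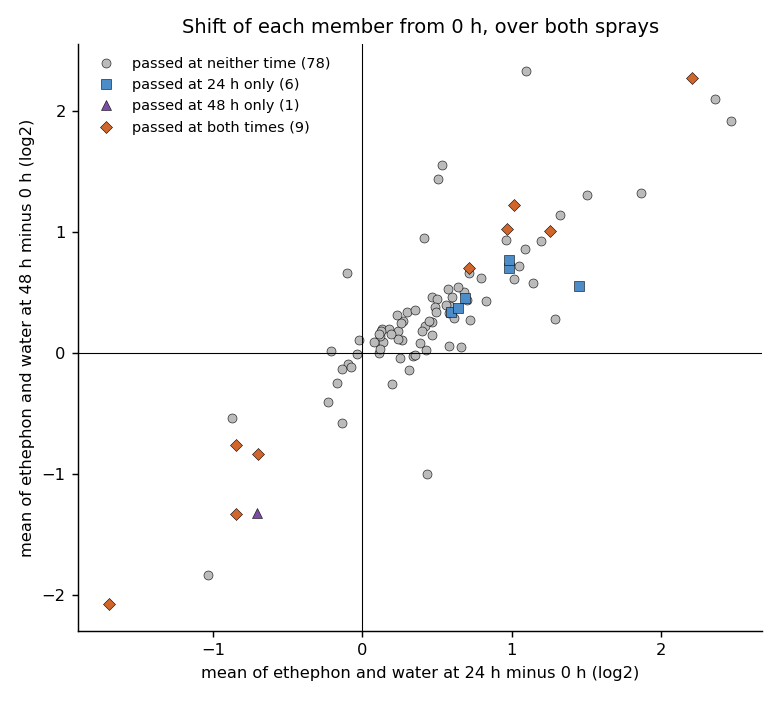
Each point is 1 member, with the mean of ethephon and water minus 0 h on the log2 scale at 24 h (horizontal) and at 48 h (vertical), and symbols for those that passed limma. The 9 members that passed at both times lie in 2 corners, 4 below 0 and 5 above it, and most members lie a little above 0 on both axes.

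The members that passed lower than 0 h were probe sets without a gene name in the annotation used. Zm.12517.1.A1_at was highest before spray, at 5023, 2286 and 3166 on the 0 h arrays. It read 931, 789.6 and 519.7 with water and 1589, 1207 and 1576 with ethephon at 24 h. At 48 h the readings were 890.4, 628 and 444 with water and 954, 1067 and 925 with ethephon. All 12 sprayed arrays lay below all 3 untreated ones, and within each time the ethephon arrays were the higher. For midpoints, here and below, the value after ± is the standard error of the limma fit and not an SD between arrays. The midpoint fell 3.23-fold at 24 h (log2 -1.69 ± 0.27, adjusted p = 0.00489) and 4.22-fold at 48 h (log2 -2.08 ± 0.27, adjusted p = 0.00163), and at each time it passed in 15 of 15 fits that left out 1 array. With the 3'/5' index added to the model it passed at 48 h (adjusted p = 0.0144) and not at 24 h (0.288), where its fitted change was larger, at -1.91 (log2).

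Zm.2193.1.A2_at had the same order of groups. It read 6603, 4155 and 5455 at 0 h, 2337, 1801 and 2066 with water and 3382, 4616 and 4849.7 with ethephon at 24 h. At 48 h it read 1778, 1718 and 1405 with water and 3111, 3107 and 2142 with ethephon. Water lay below 0 h on every array, while ethephon at 24 h overlapped with 0 h (log2 -0.85 ± 0.18, adjusted p = 0.0212 for the midpoint at 24 h; log2 -1.33 ± 0.18, adjusted p = 0.00251 at 48 h). A second probe set of the same number, Zm.2193.1.A1_at, did not meet the rule and was read for the shared number. It read 2403, 1443 and 1198 at 0 h, 223, 251 and 192 with water and 421, 484 and 618 with ethephon at 24 h. At 24 h its groups did not overlap either, whereas at 48 h ethephon (350.3, 451 and 199) and water (199.5, 302 and 183) did.

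Zm.16959.2.A1_at, one of the brightest members, read 8419, 6599 and 9183 at 0 h, 4923, 3891 and 4048 with water and 5363, 6083 and 5676 with ethephon at 24 h. The water arrays of 48 h read 3933, 3821 and 3595, and the ethephon arrays of that time 5944, 6038 and 4102. It stood above all sprayed arrays at 0 h, as did Zm.12517.1.A1_at, the 2 members of 94 that did so (2.34% of all probe sets did). The midpoint fell at 24 h (log2 -0.70 ± 0.14, adjusted p = 0.0156) and at 48 h (log2 -0.84 ± 0.14, adjusted p = 0.00848). The 4 other probe sets numbered Zm.16959 lay at -0.11 to -0.31 (log2, ethephon minus water) at 24 h, so the probe sets of that number did not move as 1.

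Zm.191.1.A1_at read 7017, 5870.3 and 8227 at 0 h, 3399, 2906 and 3012 with water and 4671, 5543 and 4399 with ethephon at 24 h. By 48 h water stood at 3855, 3279 and 2678 and ethephon at 6261, 5305 and 4373. Its water arrays all lay under its 0 h arrays, and at 48 h its highest ethephon array reached into the 0 h range (log2 -0.85 ± 0.15, adjusted p = 0.00958 at 24 h; log2 -0.76 ± 0.15, adjusted p = 0.0246 at 48 h). Zm.15688.1.S1_at passed at 48 h alone (log2 -1.32 ± 0.28, adjusted p = 0.0348), with 682, 511 and 690.0 at 0 h, 178, 196 and 185 with water and 393, 407 and 231 with ethephon. Its call was the less stable, holding in 6 of 15 fits that left out 1 array. Zm.3731.2.A1_at had a larger spread and did not pass: it read 5130.3, 1860.0 and 4353 at 0 h, 1612, 1061 and 429.7 with water and 2767, 2481 and 4621 with ethephon at 24 h.

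Genes of lignifying vascular tissue were listed as markers. Of their 6 probe sets, 5 had higher means with ethephon than with water at 24 h and 5 at 48 h, and 0 were without overlap at either time. The secondary-wall cellulose synthase gene CesA12 read 246, 1103 and 985 at 0 h, 429, 643 and 187 with water and 428, 326 and 5611 with ethephon at 24 h. Readings at 48 h were 765, 786 and 1121 in water-sprayed and 4192, 2952 and 601 in ethephon-sprayed plants. The third ethephon array of 24 h and the first of 48 h carried the highest readings, and of their groups the same arrays had the highest median over the 94 members (0.87 and 0.78 above 0 h, log2). The summed signal of the list ran from 18709 to 24970 at 0 h, from 10624 to 14448 with water and 13680 to 33826 with ethephon at 24 h, and from 11663 to 17669 and 12885 to 34143 at 48 h. Of 6 probe sets of epidermis and wax genes, 2 reached the filter, both of wax genes. The gl1 probe set had means of 192 at 0 h, 99.0 and 147 after water at 24 and 48 h, and 671 and 689 after ethephon. Its arrays of 48 h overlapped, at 1489, 460 and 119 with ethephon and 53.9, 184 and 204 with water. The other gl1 probe sets, below the filter, had means of 42.7 and 89.9 after water and 45.9 and 93.5 after ethephon at 24 h. The gl8 probe set had means of 2846 at 0 h, 2123 and 2374 after water, and 2077 and 2111 after ethephon. The part of these tissue markers in the members' differences was not tested.

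**Figure D3:**
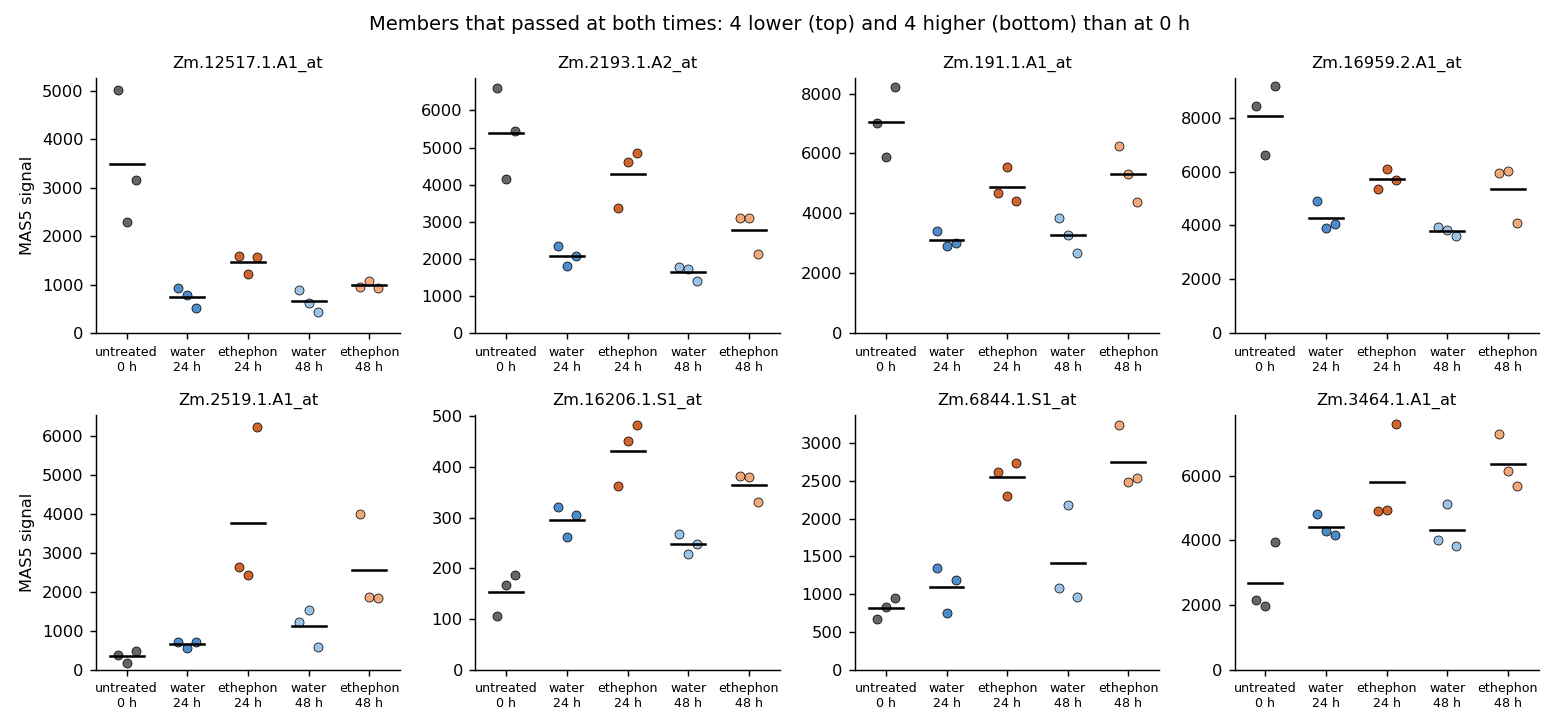
MAS5 signal (vertical, linear, from 0) of 8 members that passed at both times, with a point for each array and a bar for the group mean. In the upper row 0 h is the highest group and ethephon lies between 0 h and water. In the lower row 0 h is the lowest group and ethephon the highest of its time.

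The members that passed higher than 0 h carried no gene name either. Zm.2519.1.A1_at had the largest midpoint rise of those that passed, 4.62-fold at 24 h (log2 2.21 ± 0.42, adjusted p = 0.0121) and 4.85-fold at 48 h (log2 2.28 ± 0.42, adjusted p = 0.0138). Its arrays read 385, 181 and 489 at 0 h, 702, 567 and 701 with water and 2635, 2440.1 and 6233 with ethephon at 24 h. In plants taken at 48 h it read 1214, 1539 and 589 after water and 3994, 1859.8 and 1838 after ethephon. The signal was thus above 0 h after water on every array and above that again after ethephon.

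Zm.6844.1.S1_at read 672, 833 and 954 at 0 h, 1343, 745 and 1192 with water and 2611, 2294 and 2732 with ethephon at 24 h. At 48 h it read 1083, 2178 and 965 with water and 3241, 2478 and 2538 with ethephon. Water at 24 h overlapped with 0 h and ethephon lay well clear of both. At that time the midpoint stood above 0 h mainly through ethephon (log2 1.02 ± 0.26, adjusted p = 0.0376). By 48 h the water arrays also all lay above the 0 h arrays. The water mean was then 0.70 above 0 h and the ethephon mean 1.75 (log2), with the midpoint at log2 1.22 ± 0.26 (adjusted p = 0.0305). Zm.16206.1.S1_at, a weak probe set, read 106, 167 and 186 at 0 h, 321, 262 and 305 with water and 362, 451 and 483 with ethephon at 24 h. The water arrays of 48 h read 269, 229 and 247, and the ethephon arrays of that time 382, 380.0 and 329.9. All its sprayed arrays lay above all its 0 h arrays (log2 1.26 ± 0.21, adjusted p = 0.00522 at 24 h; log2 1.01 ± 0.21, adjusted p = 0.0262 at 48 h). The same held for Zm.10677.1.A1_at, Zm.19297.1.A1_at, Zm.2519.1.A1_at and Zm.7632.1.S1_at, 5 members in all (2.39% of all probe sets).

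Zm.3464.1.A1_at was brighter, with 2149, 1977 and 3953 at 0 h, 4827, 4279 and 4181 with water and 4917, 4947 and 7593 with ethephon at 24 h. By 48 h water stood at 4009, 5115 and 3827 and ethephon at 7282, 6153 and 5669.7. Most of its shift was shared by both sprays, and ethephon lay above water by 0.37 at 24 h and 0.56 at 48 h (log2), less than the midpoint rose (log2 0.97 ± 0.21, adjusted p = 0.0222 at 24 h; log2 1.02 ± 0.21, adjusted p = 0.0297 at 48 h). Zm.10677.1.A1_at passed at both times too (log2 0.72 ± 0.14, adjusted p = 0.0138 at 24 h; log2 0.70 ± 0.14, adjusted p = 0.0232 at 48 h). Zm.15516.1.S1_at passed at 24 h alone and just (log2 1.45 ± 0.40, adjusted p = 0.0493), and held in 4 of 15 fits that left out 1 array. Its readings were 491, 644 and 1129 at 0 h, 1988, 726 and 1411 with water and 2169, 3078 and 3909 with ethephon at 24 h. The other 5 that passed at 24 h alone rose by 0.59 to 0.98 (log2). Among them Zm.13733.1.S1_at read 315, 299 and 425 at 0 h, 712, 535 and 569 with water and 742, 811 and 731 with ethephon at 24 h. Readings at 48 h were 388, 518 and 528 in water-sprayed and 753, 573 and 658 in ethephon-sprayed plants (log2 0.98 ± 0.17, adjusted p = 0.00724 at 24 h).

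Between 48 and 24 h, the same midpoint test called 0 of the 94 members (13 at an unadjusted p under 0.05) and 0 of all probe sets (0%; 638 at an unadjusted p under 0.05). The members' median midpoint changed by -0.17 (log2), against 0.02 over all probe sets. Without the first water array of 24 h these medians were -0.06 and 0.03.

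Only 6 members were paired with a gene, 6.38%, against 8.63% of all probe sets that reached the filter, and the other 88 were unnamed in the annotation used. The 6 were MPK4, MYC2a, MNB1a, gpt, LOC542193 and EF1-A. MPK4 encodes a mitogen-activated protein kinase, the last enzyme of a phosphorylation cascade in stress signalling. It read 86.2, 129.6 and 279 at 0 h, 441, 153 and 94.2 with water and 486, 498 and 912 with ethephon at 24 h. In plants taken at 48 h it read 164, 196 and 129 after water and 707, 564 and 273 after ethephon. Its differences of log2 1.71 at 24 h and 1.57 at 48 h were the largest of the 6. However, its means of 165 at 0 h and 163 with water at 48 h lay below the signal filter. With water at 24 h the mean was 229, just above it. Ethephon means were 632 at 24 h and 515 at 48 h, so MPK4 passed the filter through its ethephon arrays. The size of its differences is therefore not firm.

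MYC2a (also listed as myc7) encodes a transcription factor of the basic helix-loop-helix class, whose Arabidopsis relative MYC2 is a main switch of the jasmonate response. It read 460.4, 364 and 624 at 0 h, 894, 396 and 488 with water and 899.8, 915 and 979.6 with ethephon at 24 h. At 48 h it read 409.9, 585 and 426 with water and 757, 719.7 and 658 with ethephon. The first water array of 24 h came within 1.01 times of the lowest ethephon array, while the other 2 water arrays lay within the 0 h range.

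MNB1a, a zinc-finger transcription factor of the DOF family, showed the other order. It read 3023, 2788 and 4289 at 0 h, 2763, 1577 and 2002 with water and 3241, 3552 and 4965 with ethephon at 24 h. The water arrays of 48 h read 2062, 1919 and 1934, and the ethephon arrays of that time 4627, 3023 and 2267. Ethephon overlapped with the untreated level at both times, and the water arrays lay below all 3 untreated arrays.

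The gene gpt encodes the translocator that carries glucose 6-phosphate into plastids. Its member probe set read 2836, 3513 and 3869.7 at 0 h, 3404, 2678 and 2889.8 with water and 3785, 3558 and 3813 with ethephon at 24 h. By 48 h water stood at 3441, 3071 and 3390.4 and ethephon at 5137, 3547 and 3534. The differences were small (log2 0.32 at 24 h and 0.28 at 48 h), and at 24 h the ethephon arrays all lay within the 0 h range. The other gpt probe set lay at 0.49 at 24 h, without overlap (1369, 1179 and 1104 with water against 1836, 1403 and 1914 with ethephon), and at 0.17 at 48 h, where the arrays overlapped. LOC542193 read 979, 1028 and 1227 at 0 h, 1433, 996 and 1117 with water and 1895, 1687 and 1689 with ethephon at 24 h. Readings at 48 h were 1054, 1248 and 1025 in water-sprayed and 1563, 1363 and 1324 in ethephon-sprayed plants. Ethephon lay above 0 h on every array at both times. None of the 6 passed the midpoint test at either time.

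**Figure D4:**
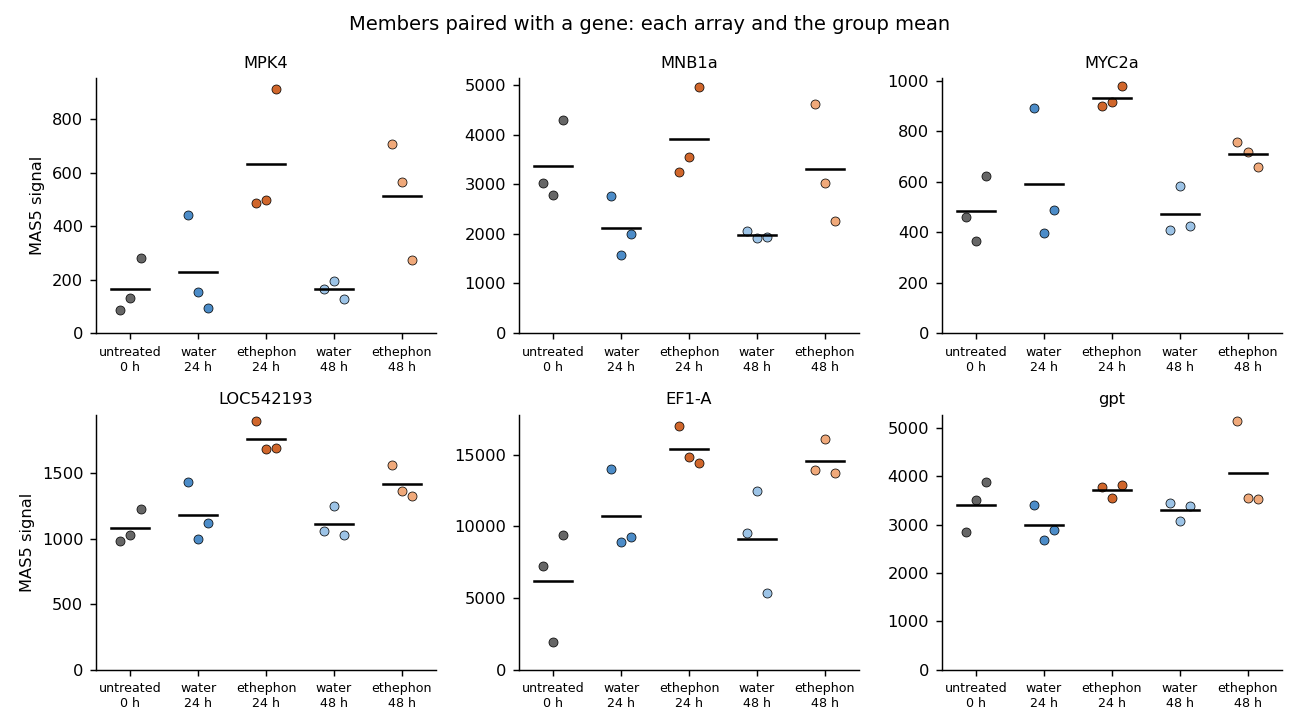
MAS5 signal (vertical, linear, from 0) of the 6 members paired with a gene, with a point for each array and a bar for the group mean. Ethephon lies above water of the same time in each panel, as the rule requires, while 0 h lies level with water for LOC542193 and level with ethephon for MNB1a.

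The probe set named EF1-A needs care. EF1-A encodes the elongation factor that brings aminoacyl-tRNA to the ribosome, a transcript of every cell. The member Zm.17271.7.A1_x_at read 7214, 1921 and 9429 at 0 h, 14034, 8883 and 9233 with water and 17017, 14833 and 14415 with ethephon at 24 h. In plants taken at 48 h it read 9575, 12452 and 5379 after water and 13961, 16134 and 13712 after ethephon. The other probe sets of that gene gave other readings: Zm.14419.1.A1_s_at lay at -0.11 at 24 h and -0.09 at 48 h (log2, ethephon minus water), with 10372, 10099 and 9632 at 0 h, and the weak Zm.17271.11.S1_at at 0.45 and 0.25. The member reads any transcript that shares its probes, which its suffix x marks on Affymetrix arrays, and which transcript gave the signal was not tested.

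A further 2 members share its number, Zm.17271.5.A1_at and Zm.17271.6.S1_x_at, and all 3 went up and down together across arrays. Zm.17271.6.S1_x_at, the brightest member, read 8365, 1677 and 11588 at 0 h, 17610.4, 9931 and 10235 with water and 22867, 18759.7 and 17925 with ethephon at 24 h. At 48 h it read 11743, 16149.9 and 4771 with water and 17295, 20902 and 18276 with ethephon. Zm.17271.5.A1_at read 1020.2, 144 and 1606 at 0 h and 6406, 4852 and 4429.5 with ethephon at 24 h. All 3 were lowest on the second 0 h array and, among sprayed arrays, on the third water array of 48 h. The second 0 h array also had the lowest 3'/5' index (0.818). The third water array of 48 h did not, with 2.16. An EF1-A pair is among the control pairs of that index, so the index is not independent of these readings. Since the 3 share a number, they cannot be counted as 3 separate transcripts, though whether they read 1 transcript was not tested.

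**Figure D5:**
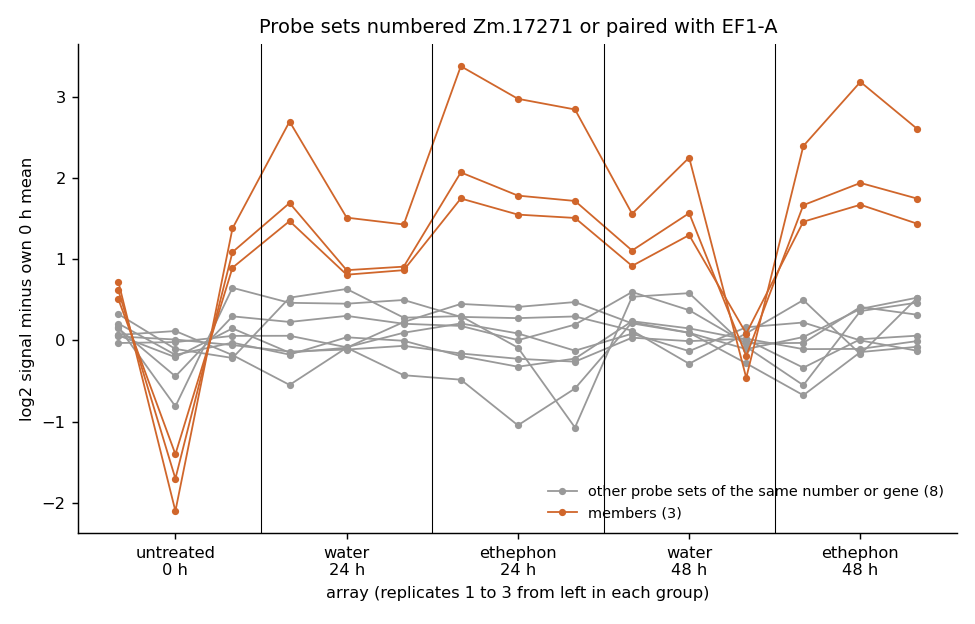
Log2 signal minus each probe set's own 0 h mean (vertical) on the 15 arrays (horizontal), for the 3 members numbered Zm.17271 and the 8 other probe sets of that number or of EF1-A that reached the filter. The members swing together over more than 2 log2 units, while most readings of the others stay nearer to 0.

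In all, the 94 members carried 91 different numbers, and 2 numbers held several members. The second, Zm.16805, held Zm.16805.3.S1_at and its x form. Zm.16805.3.S1_at read 245, 387 and 439 at 0 h, 404, 232 and 172 with water and 702, 528 and 2410.0 with ethephon at 24 h. The water arrays of 48 h read 676, 777 and 591, and the ethephon arrays of that time 1873, 1213 and 971. The third ethephon array of 24 h stood apart from the other 2. Other probe sets of a member's number or gene are those that did not meet the rule. There were 34 of them above the filter, for 13 of the numbers or genes. Of these 14 had higher means with ethephon at both times, 10 lower means at both, and 10 a mixed sign, with medians of 0.04 at both times. Over all probe sets 33.2% had higher means at both times.

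Among members without a name, and ranked by fitted values, 5 had the largest differences by the smaller of their 2 times. ZmAffx.996.1.A1_at read 179, 140.2 and 466 at 0 h, 904, 144 and 559 with water and 1406, 1243 and 2503 with ethephon at 24 h. By 48 h water stood at 256, 438 and 264 and ethephon at 1147, 1263 and 784 (log2 differences 1.97 at 24 h and 1.75 at 48 h). All its ethephon arrays stood above all its 0 h arrays. Zm.18983.1.A1_at read 153, 226 and 172 with water and 916, 535 and 1636 with ethephon at 24 h. Readings at 48 h were 234, 239 and 61.9 in water-sprayed and 368, 759 and 384 in ethephon-sprayed plants (2.36 at 24 h and 1.65 at 48 h). Its ethephon arrays were well clear of the water arrays at both times, while at 0 h it read 131, 237 and 559. Zm.4648.1.S1_at read 1097, 778 and 606 at 0 h, 2522, 437 and 1180.2 with water and 3257, 4528 and 2969.9 with ethephon at 24 h. In plants taken at 48 h it read 415, 947 and 395 after water and 3499.7, 1099.7 and 1441 after ethephon (1.69 at 24 h and 1.72 at 48 h). Its ethephon arrays lay above its 0 h arrays at both times, though 1 of them barely did at 48 h. The differences of Zm.3731.2.A1_at were 1.81 at 24 h and 1.68 at 48 h. Another probe set of that number, Zm.3731.1.A1_at, lay at -0.15 at 24 h and 0.06 at 48 h and did not meet the rule. The differences of Zm.16062.1.S1_at were 2.99 at 24 h and 1.60 at 48 h. Zm.16062.1.S1_at read 27.1, 54.9 and 163 at 0 h and 47.9, 24.1 and 90.8 with water at 24 h. All these readings lay below the filter and were not tested against background, so neither the size nor the rank of its difference is firm, and it passed the filter through its ethephon arrays.

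Other members were picked after their values were seen. Zm.847.1.S1_at had the largest fitted difference at 24 h (log2 4.38 at 24 h and 1.57 at 48 h), over water readings that were not tested against background. It read 16.7, 66.1 and 12.6 at 0 h, 51.6, 11.3 and 34.2 with water and 905, 128 and 1554 with ethephon at 24 h. At 48 h it read 45.9, 64.1 and 72.1 with water and 108, 246 and 211 with ethephon. Only ethephon arrays read above 100, and the others lay between 11.3 and 72.1, below the filter, so that the size and the rank of its difference are not firm. At 48 h the largest fitted difference was that of Zm.17272.1.S1_at (log2 0.60 at 24 h and 2.00 at 48 h). It read 1386, 687 and 737 at 0 h, 991, 871 and 1072 with water and 1335, 1699 and 1417 with ethephon at 24 h. The water arrays of 48 h read 306, 379 and 93.9, and the ethephon arrays of that time 1251, 1333 and 421. Its water arrays of 48 h all lay below its 0 h arrays, whereas those of 24 h lay within the 0 h range. Zm.12358.1.S1_at, picked for its gap between the groups, read 2539, 1446 and 994 with water and 4264, 4751 and 4350.2 with ethephon at 24 h. By 48 h water stood at 1066, 1742 and 1755 and ethephon at 8108, 3214 and 3804, with 618, 3159 and 3506 at 0 h.

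Besides those already described, the brightest unnamed members were Zm.3888.1.S1_at, Zm.4592.1.A1_at and ZmAffx.1217.1.S1_s_at. Zm.4592.1.A1_at read 3934, 3046 and 6542 at 0 h, 6547, 1756 and 3119 with water and 7461, 8333 and 7859 with ethephon at 24 h. Readings at 48 h were 1553, 4794 and 2506 in water-sprayed and 8763, 6075 and 5145 in ethephon-sprayed plants. Its water arrays varied several-fold, and its first water array of 24 h read as high as the third 0 h array. Zm.3888.1.S1_at lay log2 0.98 at 24 h and 0.73 at 48 h higher with ethephon, with 2259, 1869 and 5275 at 0 h. ZmAffx.1217.1.S1_s_at lay 0.39 at 24 h and 0.36 at 48 h higher, and its 0 h arrays, 3015, 7055 and 5855, spanned all sprayed arrays.

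No member came from 13 lists of genes of hormone response (ethylene, jasmonate, abscisic acid), stress (anaerobic response, glutathione transferases, defence, heat shock, senescence) and growth (cell wall, cell cycle, aquaporins, photosynthesis, ribosomes), which held 161 probe sets above the filter. Of these, 6 met the rule but stood for genes left aside (etr2, Hb, pdc3, gst30, cpi2 and cycD2). The lists were matched by gene name, so only the 6 named members could have been found in them. The 88 unnamed members could not, and nothing is read from the absence. The ethylene list held 1 probe set above the filter, that of etr2, which was left aside. At 24 h 19 of the 161 lay higher without overlap and at 48 h 18, the genes left aside included (7.04% and 5.13% of all probe sets did). Jasmonate genes, the pathway in which MYC2 acts in Arabidopsis, had 1 of 8 probe sets higher without overlap at 24 h and 2 of 8 at 48 h.

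The level of the members on each array, as their median against their own 0 h means, was -0.13, -0.14 and 0.32 (log2) on the 3 untreated arrays. It was 0.31, -0.19 and -0.09 with water and 0.81, 0.73 and 0.87 with ethephon at 24 h. At 48 h it was -0.01, 0.14 and -0.15 with water and 0.78, 0.54 and 0.47 with ethephon. The third untreated array and the first water array of 24 h were thus the highest outside ethephon, while the median over all probe sets stayed between -0.09 and 0.09 on every array.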

How the data were processed

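The deposited intensity values are MAS5 signals of 15 Affymetrix maize arrays, made by the authors with MAS5 per the submitters' processing notes; the scaling target and the software version are not given in the sources used here. All 15 value columns of the deposited table were used. The members were found by the stated rule with no transformation, and the members, the gene lists and the tests were chosen with earlier results of these data known. Log2 signals of 10577 probe sets were fitted with limma 3.58.1 in R 4.3.3 (5 group means, eBayes with a trend), and the mean of the ethephon and water groups of a time was set against 0 h, and 48 h against 24 h, two-sided, with Benjamini-Hochberg adjustment at 0.05 over all 10577. The differences that chose the members got no test. The midpoint contrasts are orthogonal to them in the fit, but they use the same arrays and rise with a one-sided ethephon response, so they are no independent support for the members as a set. The step was tested on simulated data with known changes. The place of 0 h is its mean log2 distance above water divided by that of ethephon above water. Named members are those with a gene, those that passed, the 5 brightest and the 5 with the largest smaller difference; the others (those at the edges of the rule, those that share a number or gene with a member, Zm.847.1.S1_at, Zm.17272.1.S1_at and Zm.12358.1.S1_at) were chosen after their values were seen. Detection calls were not used here, so low signals were not tested against background. Gene names came from the platform annotation, where 1452 probe sets have exactly 1 gene, of which 1377 matched RefSeq, 1 has several and 16281 have none listed. Alternatives were other filters on the mean signal, log2(signal + 32), quantile normalization, array weights, other variance models, the 3'/5' index, a replicate block, and leaving out each array. The control pairs of the 3'/5' index included EF1-A. A further actin pair was left out of it, because its 5' signal exceeded its 3' signal on every array. No sequences were used here. Replicate numbers did not pair the samples: residuals of arrays with the same number correlated at -0.543 to 0.633 (median -0.054).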

Additional observations from a re-analysis of the deposited data

How the results depend on the processing

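The members' midpoint tests against 0 h gave 15 calls at 24 h and 10 at 48 h among 94, and 658 and 170 among all probe sets. Filters at 100 and 400, an offset of 32, quantile normalization and robust variances left 13 to 15 and 8 to 10 of the members; array weights gave 18 and 14, and 306 of all probe sets at 48 h. With no filter 1020 of all probe sets passed at 24 h. With the 3'/5' index in the model 0 and 3 members passed, and 5 and 44 of all probe sets. With the variance taken from the trend alone 44 and 34 members passed, 2924 and 1988 of all, and for 48 h against 24 h 13 members and 739 of all. For 48 h against 24 h the filter at 100 and no filter gave 1 probe set each and array weights gave 2. With the replicate number as a block 12 and 5 members passed, and 411 and 125 of all probe sets, although the numbers did not pair the samples. Leaving out 1 array at a time gave 6 to 20 members at 24 h and 3 to 11 at 48 h, and 124 to 688, 87 to 217 and 0 to 3 of all probe sets for the 3 comparisons. The rule itself gave 74 members after quantile normalization, 62 of them shared with the 94, 110 with the filter at 100, 82 with it at 400, and 3 with a gap of 1.5 times. With 1 array fewer it gave 102 to 355, since fewer arrays had to lie apart: 305 without the first water array of 24 h and 355 without the third ethephon array of 48 h. The place of 0 h moved with the choice of 0 h array, as given above.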
